A study of Saccharomyces cerevisiae with 8 samples.

Results

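Transcript levels of 10 genes of the cell wall integrity pathway of budding yeast (Saccharomyces cerevisiae) were followed across 8 RNA-seq libraries. The genes were chosen by systematic name out of 6713 open reading frames quantified per library: the sensor genes SLG1 (YOR008C, also named WSC1), WSC4 (YHL028W) and MID2 (YLR332W), the kinase genes PKC1 (YBL105C), BCK1 (YJL095W), MKK1 (YOR231W), MKK2 (YPL140C) and SLT2 (YHR030C), the transcription factor gene RLM1 (YPL089C) and the target gene PRM5 (YIL117C). The 10 genes were chosen with earlier results of these data known. All 10 passed the filter on low counts. All libraries came from the BY4741 background, a MATa haploid laboratory strain, with 2 biological replicates in each of 4 groups and ribosomal RNA removed before library construction. Inductant 1 and inductant 2 were wild-type cells from separate inductions of the state called [SMAUG+], in which VTS1 was overexpressed from a plasmid for 48 h before the plasmid was removed and the cells were passaged. The vts1 deletion group lacked VTS1 and the naive group was wild type, and the labels give both as untreated. The labels attach the same text on transient overexpression to all 8 samples, so the groups were taken from the titles, genotypes and treatments. Each inductant is thus 1 induction, read in 2 cultures, and the number of clones behind the deletion is not stated. All cultures (50 ml) were harvested in mid-exponential growth at an OD600 of about 0.6.

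The cell wall integrity pathway relays stretch or damage at the cell surface to the nucleus. Highly O-glycosylated membrane proteins such as Slg1 and Mid2 sense the wall and, through exchange factors, activate the GTPase Rho1. Rho1 activates protein kinase C (Pkc1), which feeds a kinase cascade of Bck1, the paired kinases Mkk1 and Mkk2, and the MAP kinase Slt2. Slt2 phosphorylates the MADS-box factor Rlm1, and Rlm1 drives genes for wall proteins, among them PRM5, and also takes part in the expression of SLT2 itself. Activity in this cascade is carried by phosphorylation, which transcript levels do not measure. Vts1 is the yeast Smaug protein, which binds RNA hairpins and promotes decay of the bound transcripts.

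Libraries held 18431474 to 27501966 estimated counts. VTS1 was at 17.4 and 17.2 TPM in inductant 1, 23.7 and 19.97 TPM in inductant 2 and 0 and 0.0687 TPM (0 and 2 counts) in the deletion, against 14.4 and 13.1 TPM in naive. Each inductant library was thus above both naive ones. The log2 difference over both inductants, 0.44 ± 0.13, was not called in edgeR (adjusted p = 0.0685) and was called by DESeq2 (0.0248). Taken alone, inductant 2 was called higher than naive in edgeR (0.64, adjusted p = 0.0248) and by DESeq2 (0.00214). With limma on log2(TPM + 1) inductant 2 was not called (0.0653). Inductant 1 was not called in edgeR (0.23, adjusted p = 0.394). The MATa genes STE2, STE6 and BAR1 were at 63.2 TPM or more in every library, and the MATalpha genes were lower, with 3.53 to 4.11 TPM for STE3, 9.34 to 12.5 TPM for SAG1 and 1 to 4 counts for MF(ALPHA)1. URA3, LEU2 and MET17, deleted in this background, were at 0. The short MATa pheromone frames MFA1 and MFA2 were also listed at 0 in all libraries. Replicates differed beyond counting noise in each group, with a chi-square per degree of freedom of 20.7 and 12.4 in inductants 1 and 2, 5.47 in the deletion and 56.0 in naive. The naive pair was the least alike, and deeper libraries raise this measure. Results against naive are therefore given with the effect of leaving out each library.

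Because Vts1 acts through hairpins, the coding sequences of the 10 genes (R64) were searched on the sense strand for the loop C, any base, G, G with 0 to 3 further bases, closed by 5 Watson-Crick pairs. Of 5995 coding sequences, 422 (7.04%) held such a hairpin, and of the 10 genes 1 did. It was WSC4, whose coding sequence lies on chromosome VIII from 48763 to 50580 on the plus strand in a single exon. The hairpin spans coding bases 1530 to 1543 (chrVIII:50292-50305) and is shown with 20 bases on each side because WSC4 also had the highest ratio of its highest to its lowest library among the 10. The capitals mark the loop and the 5 lower-case bases on either side of it form the stem.
WSC4 hairpin, chrVIII:50272-50325, plus strand: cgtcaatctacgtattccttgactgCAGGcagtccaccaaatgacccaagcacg
A match of letters is a description of the sequence and not a measured binding site.

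Windows of 500 bases before the start codon were searched on both strands for 3 motifs. The Rlm1 letters, CTA and TAG separated by any 4 bases, were in 557 of 5993 windows (9.29%) and in those of 3 of the 10 genes: RLM1 itself, BCK1 and MKK1. They are shown with 15 bases on each side and the match in capitals, since RLM1 was lower in both comparisons with naive while BCK1 and MKK1 were not called in either.
RLM1, 308 to 299 bases before the start, chrXVI:381434-381473, minus strand: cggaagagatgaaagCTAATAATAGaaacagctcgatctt
BCK1, 38 to 29 bases before the start, chrX:247202-247241, plus strand: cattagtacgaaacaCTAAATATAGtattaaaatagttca
MKK1, 433 to 424 bases before the start, chrXV:772153-772192, plus strand: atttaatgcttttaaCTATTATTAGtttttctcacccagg
MKK1, 355 to 346 bases before the start, chrXV:772231-772270, plus strand: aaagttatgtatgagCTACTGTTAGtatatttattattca
The windows of SLT2 and PRM5 held none of these letters. Any 4 central bases were allowed, and those of the MKK1 match 355 to 346 bases before the start include C and G. A match is not a measured binding site, and the share of windows rests on the same loose letters. The site of SBF, the G1/S factor that contains Swi4 (letters CGCGAAA), was in 5.82% of all windows and in 0 of the 10. The site of the stress factors Msn2 and Msn4 (AGGGG) was in 34.1% of windows and in those of PKC1, BCK1, SLG1 and WSC4, with a pair of matches in WSC4. The motifs do not overlap one another in these windows.

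**Figure D1:**
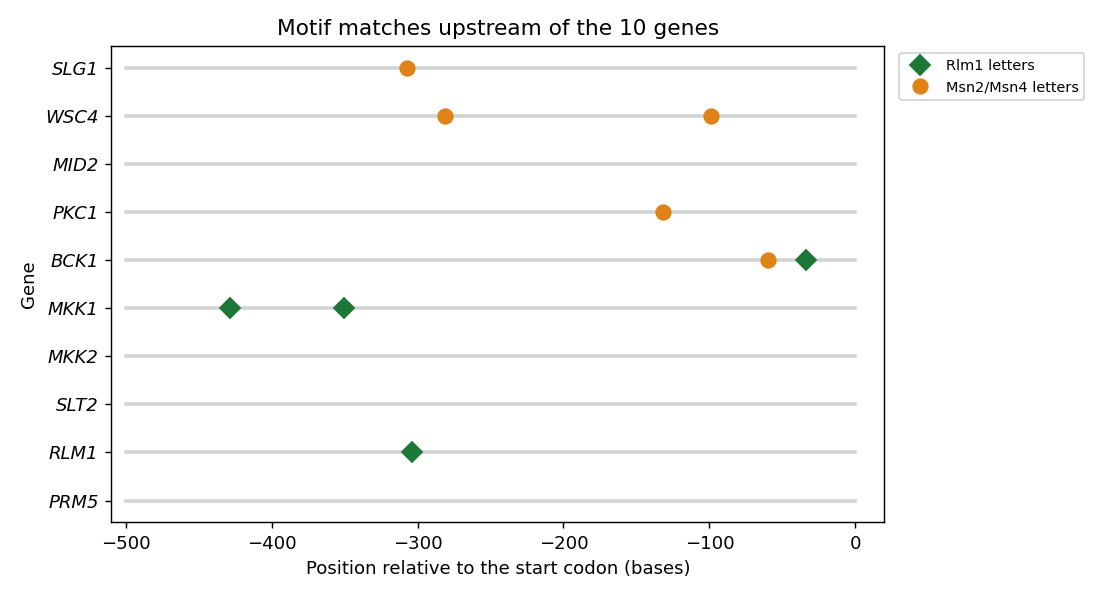
Matches to the Rlm1 letters (diamonds) and the Msn2/Msn4 letters (circles) in the 500 bases before the start codon of each of the 10 genes; the x axis is the distance from the start codon in bases. RLM1, BCK1 and MKK1 hold Rlm1 letters, whereas SLT2, MID2, MKK2 and PRM5 hold neither motif.

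Levels are given as TPM, which corrects for coding length, and ran from 13.2 TPM (WSC4 in naive) to 141.8 TPM (SLT2 in naive). From the mean of the 4 group means, SLG1 stood highest at 99.9 TPM, followed by SLT2 (82.3), MID2 (60.8), PKC1 (53.0), PRM5 (44.0), RLM1 (37.4), WSC4 (26.5), BCK1 (25.4), MKK1 (23.7) and MKK2 (15.9). Neighbours in this order overlapped over the 8 libraries except MKK1 and MKK2: MKK1, at 21.4 to 25.4 TPM, was above MKK2, at 14.4 to 18.1 TPM, in each library. The genes also differed in how far they moved. The highest library was 3.18 times the lowest for WSC4, 2.48 times for SLT2, 2.15 times for PRM5, 2.05 times for RLM1 and 1.61 times for MID2, and 1.19 to 1.37 times for SLG1, PKC1, BCK1, MKK1 and MKK2.

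**Figure D2:**
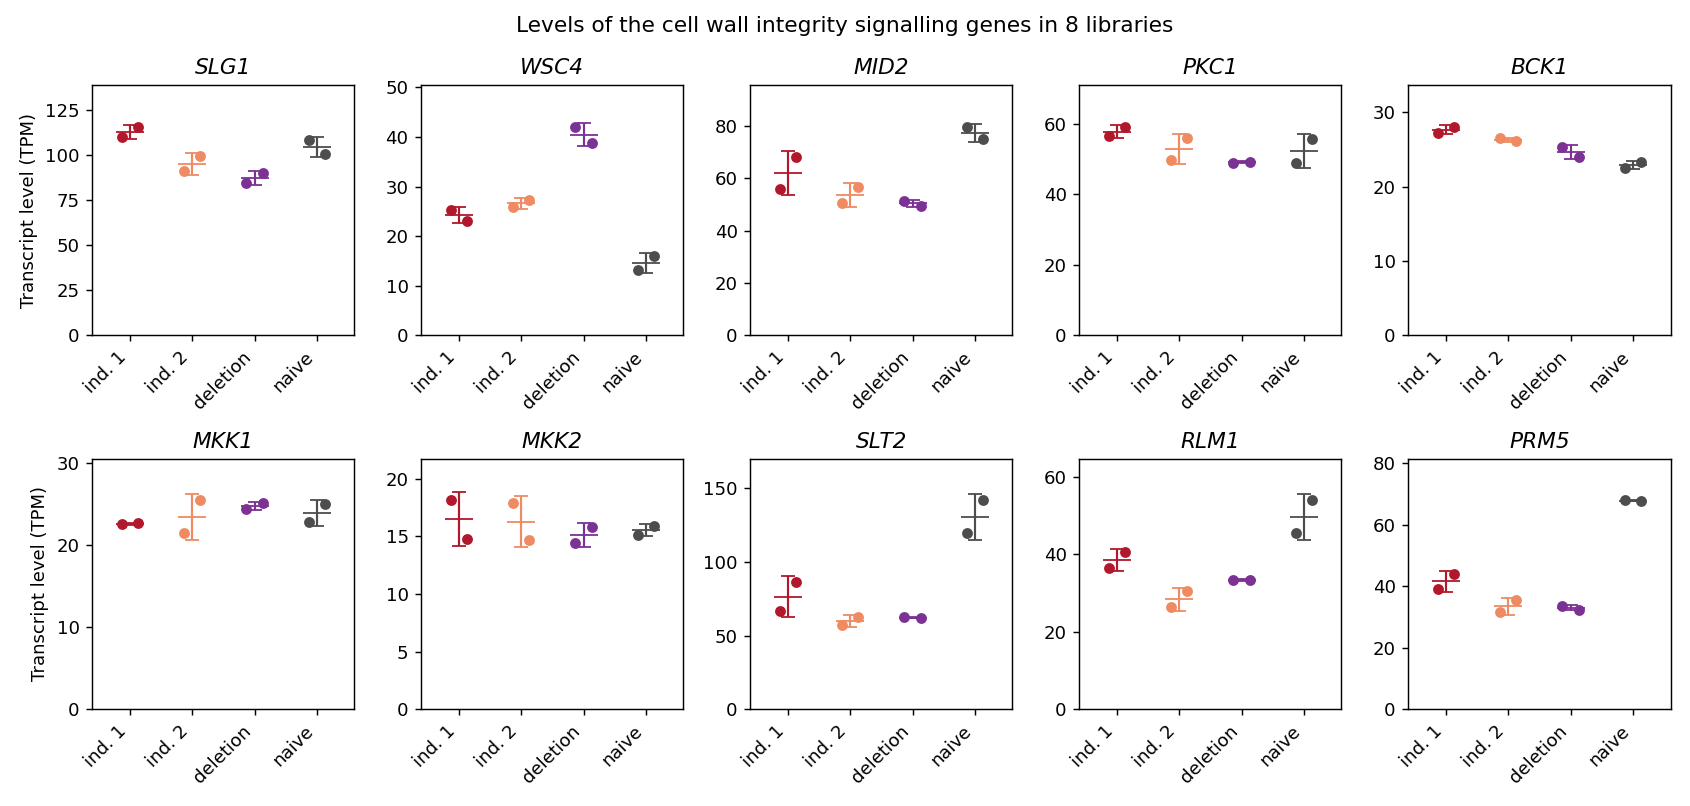
Transcript level (TPM, y axis from 0) of each of the 10 genes in inductant 1, inductant 2, the vts1 deletion and naive; points are the 2 libraries of a group, horizontal marks their mean and bars their SD. SLT2, RLM1, MID2 and PRM5 were highest in both naive libraries, and WSC4 and BCK1 were lowest there. The share of all genes with both naive libraries at an extreme was not counted, so this separation, here and in the text, is a description. MKK1 and MKK2 stayed within 21.4 to 25.4 and 14.4 to 18.1 TPM.

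The main comparison of the design set the inductants against naive. SLT2, RLM1, MID2 and PRM5 were lower in the inductants and WSC4 was higher, while SLG1, PKC1, BCK1, MKK1 and MKK2 were not called. Genes were called at an adjusted p under 0.05 in edgeR's quasi-likelihood test over 6230 genes. In these 10 genes 1 was called higher and 4 lower, where the shares over all genes tested were 2.97% higher, 5.6% lower and 8.57% in either direction. Because the genes were chosen with earlier results of these data known, this and the later contrasts with all genes are descriptions. They are no test of the pathway. The median log2 fold change of the 10 was -0.10, beside -0.01 for all genes tested. With all libraries 534 genes were called. Dropping naive replicate 2 raised that number to 1221. It came to 277 and 336 when replicate 1 or replicate 2 of inductant 1 was dropped, to 315 for replicate 1 of inductant 2, and to 339 and 341 for the deletion libraries. The same 5 of the 10 genes were called in each of the 8 fits with 1 library left out.

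The vts1 deletion was also set against naive. The same 5 genes were called in the same directions in the deletion, and SLG1 was lower as well, so that 1 of the 10 was higher and 5 were lower. Over all genes tested, 11.7% were higher, 14.6% lower and 26.3% called in either direction. That balance of 729 higher and 908 lower genes turned with limma on TPM, which has no TMM scaling, to 990 higher and 460 lower on log2(TPM + 1). The median log2 fold change was -0.27 for the 10 genes and close to 0 for all genes. Without deletion replicate 1 or 2 the genes called numbered 680 and 714, against 1637 with all libraries. Both comparisons use the same 2 naive libraries, so that any feature of those libraries enters both, and their likeness is not independent evidence.

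Of the 3 sensor genes among the 10, WSC4 moved furthest. WSC4 carries the extracellular domain of the Wsc sensors, although RefSeq describes it as a membrane protein of the endoplasmic reticulum involved in protein translocation. Its level was 25.4 and 23.1 TPM in inductant 1, 25.8 and 27.4 TPM in inductant 2, 42.1 and 38.8 TPM in the deletion, and 13.2 and 16.0 TPM in naive. The 3 kinds of culture did not overlap, with the inductants between the deletion and naive. WSC4 rose in the inductants by a log2 fold change of 0.73 ± 0.09 against naive (SE; adjusted p = 0.000586) and in the deletion by 1.38 ± 0.10 (adjusted p = 8.17e-06), which is 1.65-fold and 2.60-fold. Both calls were made in every fit that left out 1 library and under each other setting tried. WSC4 is the gene with the hairpin printed above, and whether Vts1 binds it was not tested.

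MID2 encodes a sensor known for survival during mating and wall stress. It was at 56.0 and 68.0 TPM in inductant 1, 50.4 and 56.8 TPM in inductant 2, 51.5 and 49.4 TPM in the deletion, and 79.7 and 74.9 TPM in naive, so both naive libraries lay above the other 6. On the log2 scale MID2 fell by 0.49 ± 0.09 in the inductants (adjusted p = 0.00747) and fell by 0.71 ± 0.11 in the deletion (adjusted p = 0.000846). With limma on TPM the inductant call was lost at an adjusted p of 0.0536. The deposited MID2 counts are fractional in 8 of 8 libraries, so they are estimates and not whole reads. The dubious frame JIP3 overlaps MID2 on the other strand for 371 bases (chromosome XII, 790669 to 791046), and with strand unstated the 18.3 to 71.0 counts assigned to it per library cannot be told apart from MID2, which had 983 to 1907.

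SLG1, the gene of the main Wsc sensor, was at 110.0 and 115.8 TPM in inductant 1, 90.9 and 99.6 TPM in inductant 2, 84.4 and 90.0 TPM in the deletion, and 108.2 and 100.6 TPM in naive. The inductants spread around the naive level and differed from it by -0.08 ± 0.07 (95% interval -0.23 to 0.07, adjusted p = 0.49). In the deletion both libraries were under both naive ones, and SLG1 fell by 0.35 ± 0.08 (adjusted p = 0.00819). Dropping deletion replicate 1 ended this call (adjusted p = 0.104), as did limma on TPM (adjusted p = 0.055).

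The upper kinases showed no call against naive. PKC1, the kinase that Rho1 activates, was at 56.5 and 59.2 TPM in inductant 1, 49.9 and 55.9 TPM in inductant 2, 48.9 and 49.3 TPM in the deletion, and 48.8 and 55.7 TPM in naive. Both inductant 1 libraries were above the other 6, whereas inductant 2 and the deletion overlapped naive. PKC1 differed from naive by 0.01 ± 0.07 in the inductants (95% interval -0.13 to 0.16) and by -0.18 ± 0.08 in the deletion (95% interval -0.35 to -0.01, adjusted p = 0.105). The deletion difference was called without naive replicate 1 (adjusted p = 0.0332). BCK1, the first kinase of the MAP kinase cascade, was at 27.3 and 28.1 TPM in inductant 1, 26.5 and 26.1 TPM in inductant 2, 25.3 and 24.0 TPM in the deletion, and 22.5 and 23.3 TPM in naive. Its naive libraries were below the other 6 in TPM, which has no TMM scaling. Against naive, the median of all genes on log2(TPM + 1) was 0.061 in the inductants and 0.089 in the deletion. In edgeR these medians were -0.007 and 0.0. There BCK1 was not called in the inductants, at 0.17 ± 0.06 (95% interval 0.04 to 0.30, adjusted p = 0.102). Nor was it in the deletion, at 0.01 ± 0.07 (adjusted p = 0.915).

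MKK1 and MKK2 encode the redundant kinases that phosphorylate Slt2. MKK1 was at 22.5 and 22.6 TPM in inductant 1, 21.4 and 25.4 TPM in inductant 2, 24.4 and 25.1 TPM in the deletion, and 22.8 and 25.04 TPM in naive. Against naive, MKK1 differed by -0.13 ± 0.09 in the inductants (95% interval -0.31 to 0.06) and -0.04 ± 0.10 in the deletion (95% interval -0.26 to 0.17). The deletion's TPM mean was the higher of the 2, since the differences are on TMM-scaled counts: in the deletion against naive the median of all genes was 0.09 on log2(TPM + 1) and close to 0 in edgeR. MKK2 was at 18.1 and 14.8 TPM in inductant 1, 17.9 and 14.7 TPM in inductant 2, 14.4 and 15.9 TPM in the deletion, and 15.2 and 15.9 TPM in naive. Its differences were 0.01 ± 0.12 in the inductants (95% interval -0.25 to 0.27) and -0.13 ± 0.14 in the deletion (95% interval -0.43 to 0.17). For MKK2 all groups overlapped, and for MKK1 inductant 1 lay below the deletion and naive while the other groups overlapped naive. Over both genes the intervals reach differences of -0.43 and 0.27 on the log2 scale.

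Of the 10 genes, SLT2 and PRM5 at the lower end of the cascade fell the most against naive. SLT2, the MAP kinase gene (chromosome VIII, 168890 to 170344), was at 66.7 and 86.1 TPM in inductant 1, 57.2 and 62.8 TPM in inductant 2, 62.4 and 62.1 TPM in the deletion, and 119.7 and 141.8 TPM in naive. No inductant or deletion library reached the lower naive one. SLT2 fell by 1.02 ± 0.10 on the log2 scale in the inductants (adjusted p = 0.000409) and fell by 1.16 ± 0.12 in the deletion (adjusted p = 0.000214), which left 0.495 and 0.447 of the naive level.

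RLM1, the factor that Slt2 phosphorylates (chromosome XVI, 379120 to 381150), was at 36.5 and 40.5 TPM in inductant 1, 26.3 and 30.5 TPM in inductant 2, 33.2 and 33.4 TPM in the deletion, and 45.3 and 53.8 TPM in naive. Again the naive libraries were above the other 6. RLM1 fell by 0.65 ± 0.08 in the inductants (adjusted p = 0.000609) and fell by 0.66 ± 0.10 in the deletion (adjusted p = 0.000634).

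PRM5 encodes a small membrane protein induced by pheromone and by cell wall integrity signalling (chromosome IX, 140613 to 141569). It was at 39.2 and 44.1 TPM in inductant 1, 31.5 and 35.4 TPM in inductant 2, 33.7 and 32.4 TPM in the deletion, and 67.9 and 67.7 TPM in naive, where the replicates were nearly equal. PRM5 fell by 0.93 ± 0.08 in the inductants (adjusted p = 0.000115) and fell by 1.13 ± 0.10 in the deletion (adjusted p = 2.82e-05). The calls of SLT2, RLM1 and PRM5 in these 2 comparisons were kept in each fit without 1 library and under each other setting.

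**Figure D3:**
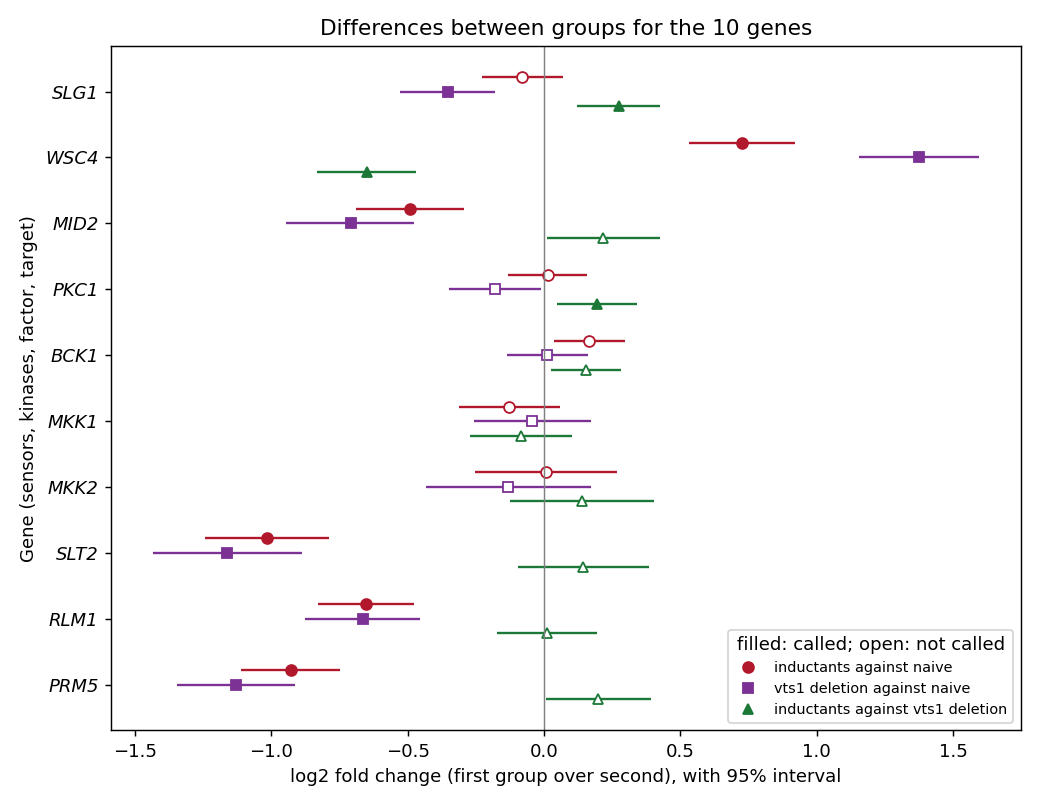
Log2 fold change (x axis, first group over second) with its 95% interval for the 10 genes (y axis) in the inductants against naive (circles), the vts1 deletion against naive (squares) and the inductants against the deletion (triangles); filled symbols were called. SLT2 and PRM5 lie near -1 in both comparisons with naive, WSC4 lies at 0.73 and 1.38, and the triangles of SLT2 and RLM1 have intervals that include 0.

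The inductants against the vts1 deletion is a comparison that holds no naive library. Here WSC4 was lower and SLG1 and PKC1 were higher in the inductants, and the other 7 were not called. The shares over all genes tested were 18.7% higher, 19% lower and 37.6% in either direction, so the members' 3 calls of 10 were no more frequent than the background. WSC4 fell by 0.65 ± 0.08 (adjusted p = 0.000169), in each of the fits that left out 1 library. SLG1 rose by 0.27 ± 0.07 (adjusted p = 0.0103) and PKC1 by 0.19 ± 0.07 (adjusted p = 0.0406). The PKC1 call was not made without a filter on low counts (adjusted p = 0.0545) or with limma on log2(TPM + 1) (0.143). SLG1 was lost without inductant 1 replicate 2, deletion replicate 1 or deletion replicate 2, and each of these fits called 1 of the 10 genes. PKC1 was lost when either inductant 1 library, inductant 2 replicate 2 or either deletion library was dropped (5 of the 8 such fits), and BCK1, at 0.15 ± 0.06 (adjusted p = 0.06), was called when either naive library was dropped.

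For the 4 genes that were lower than naive in both, the inductants and the deletion did not differ by a call. SLT2 differed between them by 0.15 ± 0.11 (95% interval -0.09 to 0.39, adjusted p = 0.315) and RLM1 by 0.01 ± 0.08 (95% interval -0.17 to 0.20, adjusted p = 0.928). PRM5 differed by 0.20 ± 0.09 (95% interval 0.01 to 0.39, adjusted p = 0.0946) and MID2 by 0.22 ± 0.09 (95% interval 0.01 to 0.42, adjusted p = 0.0894). MID2 was called when inductant 1 replicate 1 was dropped (0.28, adjusted p = 0.0323). The intervals allow the inductants up to 0.42 more than the deletion on the log2 scale. Missing the threshold does not show that the levels were alike.

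The inductions were also read one at a time. In inductant 1, SLT2, RLM1 and PRM5 were lower than naive and WSC4 was higher, where 1.2% of all genes were higher, 3.19% lower and 4.4% called. The counts behind these shares, 75 higher and 199 lower, came to 7 and 9 with limma on log2(TPM + 1) and 185 and 309 with DESeq2. In inductant 2, MID2 was called lower as well, where 3.24% of all genes were higher, 5.79% lower and 9.04% called. SLT2 stood at -0.87 ± 0.12 in inductant 1 and -1.16 ± 0.12 in inductant 2, RLM1 at -0.46 ± 0.10 and -0.84 ± 0.10, and PRM5 at -0.80 ± 0.10 and -1.06 ± 0.10 (edgeR adjusted p from 0.000124 to 0.0242). MID2 was at -0.42 ± 0.10 in inductant 1 (adjusted p = 0.0502) and -0.57 ± 0.11 in inductant 2 (adjusted p = 0.00795). In inductant 1 it was called without a filter on low counts (adjusted p = 0.0479), with the replicate number as a block (0.0367), by DESeq2 (0.0147) and when naive replicate 2 was dropped (0.0181). WSC4 was at 0.62 ± 0.10 and 0.83 ± 0.10. Of the 4 calls in inductant 1, that of SLT2 alone was made when its replicate 1 was dropped, and those of SLT2 and PRM5 when its replicate 2 was dropped. RLM1 in inductant 1 was also lost without either deletion library (adjusted p = 0.0532 and 0.0519). In inductant 2, MID2 was lost without its replicate 1 (adjusted p = 0.093).

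Set against each other, inductant 1 and inductant 2 differed in 0.449% of all genes (28 of 6230, and 964 at an unadjusted p under 0.05). In edgeR 0 of the 10 genes were among them, with 4 at an unadjusted p under 0.05, whereas DESeq2 called 1. That gene was RLM1, at 0.38 ± 0.10 higher in inductant 1 (adjusted p = 0.112 in edgeR and 0.0414 in DESeq2), which was also called with the replicate number as a block (adjusted p = 0.0312) and without naive replicate 1 or 2. The other 3 of these 4 were SLT2 at 0.29 ± 0.12, PRM5 at 0.25 ± 0.10 and SLG1 at 0.18 ± 0.08, without a call.

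Other genes of the pathway, 38 in all, were read in the same fits. Against naive, the inductants had 0 higher and 8 lower in edgeR, and the deletion had 8 higher and 8 lower. In the inductants 18 of the 38 were at an unadjusted p under 0.05 in either direction, as were 1648 of the 6230 genes tested. DESeq2 called 2 of the 38 higher in the inductants, SWI4 and SPA2, named here after their values were seen. Among all genes it called 288 higher in this comparison. With limma on log2(TPM + 1), 0 of the 38 were called higher and 3 lower in the inductants, beside 110 higher and 138 lower among all genes. With 1 library left out, the inductants had 0 to 6 higher, with 6 without naive replicate 2, and 4 to 10 lower, with 4 without inductant 1 replicate 1. The deletion had 6 to 9 higher and 4 to 13 lower, with 4 and 5 lower without its replicate 1 or 2 and 13 without naive replicate 1. The median log2 fold change of the 38 was -0.08 in both comparisons. In the inductants against the deletion 8 of the 38 were higher and 13 lower, and without deletion replicate 1 or 2 there were 4 higher in both fits and 9 and 8 lower. The shares called over all genes tested were 8.57% in the inductants against naive, 26.3% in the deletion against naive and 37.6% in the inductants against the deletion. Among the other sensors, MTL1, the paralog of MID2, was at 16.9 and 22.3 TPM in inductant 1, 12.1 and 15.3 TPM in inductant 2, 12.01 and 10.7 TPM in the deletion, and 24.5 and 34.3 TPM in naive. Both naive libraries were above the other 6. MTL1 fell by 0.91 ± 0.15 in the inductants (adjusted p = 0.00838, and 0.0528 with limma on TPM) and fell by 1.46 ± 0.19 in the deletion (adjusted p = 0.000759). Its deposited counts are fractional in 8 of 8 libraries, so they are estimates and not whole reads. WSC3, another Wsc sensor gene, was at 0.06 ± 0.10 in the inductants (adjusted p = 0.745) and rose by 0.69 ± 0.11 in the deletion (adjusted p = 0.00115), and WSC2 was not called in either.

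In the Rho1 module of 8 genes, RHO1 itself was not called. ROM1, an exchange factor of Rho1, fell by 0.55 ± 0.12 in the inductants (adjusted p = 0.0188). Its call ended when inductant 1 replicate 1 was dropped (adjusted p = 0.0558) or naive replicate 2 (adjusted p = 0.0565). In the deletion ROM1 was at -0.41 ± 0.14 (adjusted p = 0.0502), which was called by DESeq2 (0.0177), with the replicate number as a block (0.00287), with the compared groups alone (0.0309) and in 5 of the 8 fits with 1 library left out. BAG7, a GTPase-activating protein of Rho1, fell by 0.71 ± 0.16 in the inductants (adjusted p = 0.0188), and this ended when either inductant 1 library, inductant 2 replicate 1 or naive replicate 2 was dropped. With limma on log2(TPM + 1) the inductant calls of ROM1 (adjusted p = 0.0963) and BAG7 (0.0941) were lost. LRG1, another GTPase-activating protein, rose by 0.51 ± 0.08 in the deletion (adjusted p = 0.000929). PKH1, a kinase that phosphorylates Pkc1, rose by 0.60 ± 0.10 in the deletion (adjusted p = 0.00111). PKH1 was not called in the inductants (0.21 ± 0.08, adjusted p = 0.142) except when naive replicate 2 was dropped (adjusted p = 0.0216).

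Of the 5 phosphatase genes, PTP2, whose product acts on Slt2 and Hog1, fell by 0.52 ± 0.11 in the inductants (adjusted p = 0.0158) and fell by 0.67 ± 0.12 in the deletion (adjusted p = 0.00411). The first of these calls ended when inductant 1 replicate 1 was dropped (adjusted p = 0.0604). PTP3, a related tyrosine phosphatase, was at 0.03 ± 0.07 in the inductants (adjusted p = 0.836) and rose by 0.64 ± 0.08 in the deletion (adjusted p = 0.000289). The PTP2 call in the inductants was also lost with limma on log2(TPM + 1) (adjusted p = 0.0941). In the deletion PTP2 and PTP3 thus had opposite calls.

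Of 13 genes that Slt2 and Rlm1 are known to induce in wall stress, the inductants had 0 higher and 4 lower. The deletion had 2 higher and 4 lower. In the inductants 7 of the 13 were at an unadjusted p under 0.05 in either direction, as were 1648 of all 6230 genes tested. Of the 4 lower in the deletion, NCW2 alone was called without deletion replicate 1, and 2 were called without deletion replicate 2. Without naive replicate 2, the inductants had 2 of the 13 higher. Over all genes tested, 2.97% were higher and 5.6% lower in the inductants, and 11.7% higher and 14.6% lower in the deletion. CWP1, which encodes a wall mannoprotein, was at 10.4 and 15.2 TPM in inductant 1, 10.5 and 9.26 TPM in inductant 2, 100.8 and 108.1 TPM in the deletion, and 33.1 and 44.6 TPM in naive. The 3 kinds of culture did not overlap, with naive between the deletion and the inductants. CWP1 fell by 1.84 ± 0.16 in the inductants (adjusted p = 0.000143) and rose by 1.34 ± 0.17 in the deletion (adjusted p = 0.000539). SED1, which encodes a structural wall protein, fell by 0.25 ± 0.06 in the inductants (adjusted p = 0.0333) and rose by 0.70 ± 0.07 in the deletion (adjusted p = 8.54e-05). Its inductant call ended when inductant 1 replicate 1, inductant 2 replicate 1, naive replicate 1 or either deletion library was dropped. The SED1 call in the inductants was also lost with limma on log2(TPM + 1) (adjusted p = 0.0999) and with the compared groups alone (0.0824). CWP1 and SED1 were thus higher in the deletion, where SLT2, RLM1 and PRM5 were lower. NCW2, a wall protein gene, fell by 0.59 ± 0.08 in the inductants (adjusted p = 0.00165) and fell by 0.68 ± 0.10 in the deletion (adjusted p = 0.000792). PIR3, a wall protein gene whose deposited counts are also fractional in 8 of 8 libraries, fell by 1.24 ± 0.16 in the inductants (adjusted p = 0.000677) and was at -0.22 ± 0.18 in the deletion (adjusted p = 0.403). The PIR3 value is therefore uncertain.

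**Figure D4:**
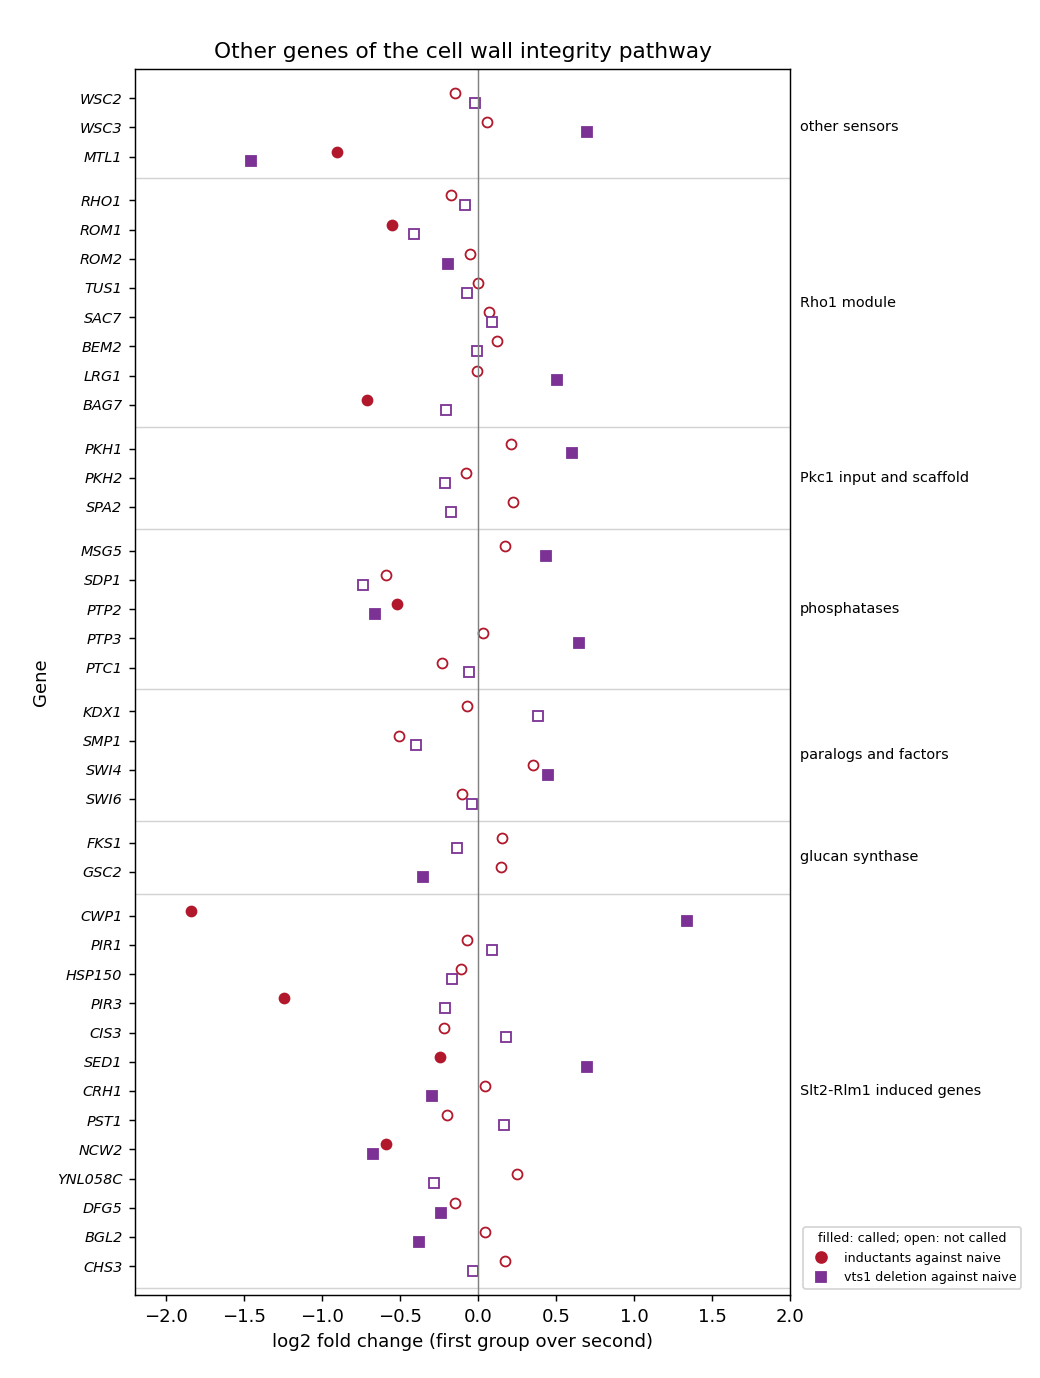
Log2 fold change (x axis, first group over second) of 38 other pathway genes (y axis, by role) in the inductants against naive (circles) and the vts1 deletion against naive (squares); filled symbols were called. CWP1 and SED1 lie on opposite sides of 0 in the 2 comparisons, and MTL1, PTP2 and NCW2 are on the lower side in both.

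Over the 8 libraries, the genes outside the 10 whose log2 CPM was most like that of SLT2 were AFR1 (Pearson r = 0.987), GSY1 (0.986), MPF1 (0.985), HAP4 (0.983) and MAL31 (0.982). AFR1 acts in mating projection and pheromone adaptation, GSY1 makes glycogen and HAP4 activates respiratory genes. GSY1 was at 114.5 and 148.6 TPM in inductant 1, 76.7 and 97.0 TPM in inductant 2, 77.0 and 86.6 TPM in the deletion, and 256.9 and 299.9 TPM in naive. Within the 10, r with SLT2 was 0.984 for PRM5, 0.963 for RLM1, 0.948 for MID2, 0.613 for SLG1, 0.441 for PKC1, 0.392 for MKK1, 0.03 for MKK2, -0.419 for BCK1 and -0.866 for WSC4. The 8 libraries are 4 groups of 2 with a common scaling, so these correlations are a description. As for SLT2, both naive libraries stood above the other 6 for GSY1, a pattern that its choice by likeness to SLT2 favours.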

How the data were processed

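RNA-seq libraries of 8 cultures (4 groups of 2) were analysed from deposited tables. Per the submitters' processing notes, the authors used kallisto and build R64. Its version and strand setting were not given in the sources used here. Deposited estimated counts need not be whole (83.2% to 84.1% were, within 1e-06), and the deposited TPM values rest on the same assignment. Lengths in the files are coding lengths (99.97% are multiples of 3). Counts were rounded and tested with edgeR 4.0.16 (R 4.3.3): TMM scaling, filterByExpr (6230 genes kept), robust quasi-likelihood fit of all 8 libraries with 1 mean per group and 4 residual degrees of freedom, and Benjamini-Hochberg adjustment over those genes, two-sided. Errors of log2 fold changes are SE from the fit. The spread is that between 2 cultures of a group, not between inductions. Precision also depends on depth; these tests ran on 422 counts or more per library for each of the 10 genes. Alternatives used DESeq2 1.42.0, limma 3.58.1 on log2(TPM + 1) or log2(TPM + 0.1), RLE scaling, no filter, the compared groups alone, a replicate block, and each library left out. The edgeR procedure was tested on counts drawn with known changes. Genes named: the 10, the 12 pathway genes with the largest change among those called against naive in the inductants or the deletion, and the 5 most like SLT2; other names stand in the text only as background, as not called or as chosen after their values were seen. The 10 genes and the lists were chosen with earlier results of these data known. Sequences were read from RefSeq R64, where 5990 of 5995 coding lengths equalled those in the files.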

Additional observations from a re-analysis of the deposited data

How the results depend on the processing

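Over all alternatives and the 6 comparisons, 855 re-computed results of the 10 genes kept their side of the threshold. A further 32 lost a call and 13 gained one. Where the main fit or the alternative made a call, 0 results reversed direction. Any change of sign with no call in either fit was not counted as reversed and stands among the 855. Leaving out 1 library gave 277 to 1221 genes changed in the inductants against naive, 680 to 1819 in the deletion against naive, 1115 to 2768 in the inductants against the deletion (1 to 4 of the 10 genes), 24 to 1048 in inductant 1 against naive (1 to 5), 161 to 1023 in inductant 2 against naive and 1 to 318 between the inductants (0 to 1). In such fits the lone library of a group is assumed to vary like the other groups. The lowest counts came without inductant 1 replicate 1 (inductant 1 against naive), without inductant 2 replicate 1 (inductant 2 against naive) or without either of these 2 (between the inductants), and naive replicate 2 gave the highest against naive in each inductant when dropped. With the compared groups alone, 340 genes changed in the inductants against naive, 109 in inductant 1, 231 in inductant 2 and 113 between the inductants. With limma on log2(TPM + 1) and log2(TPM + 0.1), the counts were 248 and 239 in the inductants against naive, 16 and 5 in inductant 1 (1 and 0 of the 10 genes), 247 and 245 in inductant 2, and 2 and 3 between the inductants. DESeq2 gave 494 in inductant 1 against naive and 183 between the inductants, RLM1 (1 of the 10) among them. The cause was not tested. Same-numbered libraries did not deviate together (correlations -0.11 to 0.11), so the numbers are taken as names. The replicate block gave 422 genes in inductant 1 against naive and 140 between the inductants, with 1 of the 10, RLM1. With 2 libraries per group, the 95% intervals of MKK2 reached -0.43 in the deletion against naive, which limits what its missing calls show.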
